A study of Mus musculus with 36 samples.

Results

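The cytochrome P450 genes of the mouse are described here in the intestines of late embryos and in embryonic fibroblasts. They were chosen as the protein-coding genes whose symbol begins with Cyp and a digit, which gave 100 of the 52636 genes measured. A further 22 Cyp loci annotated as pseudogenes or as non-coding were left out. Of the 100 genes, 91 had a read in at least 1 library and 9 had none.

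P450 enzymes hold a heme group and use electrons passed on by a reductase to put an oxygen atom into a substrate. Members of the Cyp2 and Cyp3 families oxidize drugs and other foreign compounds, Cyp4 and Cyp2j enzymes oxidize fatty acids and their signaling products, and smaller families make or break down sterols, bile acids, steroid hormones, vitamin D and retinoic acid. In the intestine many of these enzymes are made by the absorptive enterocytes of the villus, and several of their genes are controlled by nuclear receptors.

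RNA was sequenced from whole intestines taken at E18.5, late in gestation, and from mouse embryonic fibroblasts (MEFs), with 3 libraries for each genotype, to ask how caspase-8 and its partner cFLIP, encoded by Cflar, act in the intestine when necroptosis is blocked by loss of Mlkl. Casp8 D387A is a knock-in allele whose product cannot cleave itself between its catalytic subunits, and Casp8 C362A is a knock-in allele without catalytic activity. The first set of intestines held Mlkl KO controls and embryos with the D387A knock-in and intact Mlkl, named D387A here. It also held D387A-Cflar embryos, with the knock-in and loss of Cflar and Mlkl, D387A-Cflar-Casp1 embryos, which lacked Casp1 as well, and embryos that lacked Ifnar1 or Fadd in addition (D387A-Cflar-Casp1-Ifnar1 and D387A-Cflar-Casp1-Fadd). The second set held its own Mlkl KO controls and embryos with the C362A knock-in and loss of Mlkl (C362A), of Mlkl and Casp1 (C362A-Casp1) or of Mlkl and Cflar (C362A-Cflar). The MEFs were Mlkl KO or D387A-Cflar. Loss of Mlkl, which the short names leave out, was shared by every group but D387A, and no group was wild type. All alleles were germline, so each acted in every cell type of the intestine, and replicates were separate embryos or cultures. D387A differed from its controls in Casp8 and Mlkl, and D387A-Cflar differed from its controls in Casp8 and Cflar, so the parts of these alleles cannot be told apart. Sample titles of the D387A set begin with a number that Mlkl KO and D387A-Cflar share and that differs for each other genotype. Its meaning is not given, and in comparisons across different numbers its effects and those of the genotype cannot be told apart. Titles of the C362A set and of the MEFs have no such number. Reads on genes per library ranged from 17943524 to 27721024 in the D387A set, from 21757868 to 31052238 with C362A and its controls, and from 20927014 to 32307629 in MEFs.

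The deleted genes were examined first. Casp1 ran from 0 to 0.142 RPKM (reads scaled to the length of the gene in kilobases and to the library size) in the 12 intestines labelled as lacking it, and from 28.4 to 83.0 RPKM in the other 18. Fadd lay between 0.169 and 0.259 RPKM in the 3 intestines labelled as lacking it and between 6.52 and 12.9 RPKM in the remaining 27. Ifnar1 lay between 8.50 and 9.69 RPKM in its 3 knockout intestines and between 19.5 and 26.4 RPKM in the others. Cflar ranged from 4.30 to 7.55 RPKM in knockout intestines and from 5.58 to 9.21 RPKM in the rest, and Mlkl ranged from 1.07 to 31.2 RPKM in knockout intestines and from 5.42 to 6.94 RPKM in D387A. Reads outside a deleted stretch are still counted, so the overlapping levels of Cflar and Mlkl do not check those labels. Epcam, a marker of epithelium, lay between 471.9 and 1192 RPKM in the intestines and between 0.167 and 1.54 RPKM in Mlkl KO MEFs, where the enterocyte genes Apoa4 and Alpi had 0 reads.

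A few libraries stood apart from the others of their genotype. The squared difference between replicates, divided by that of counting error alone, ran from 5.01 to 70.8 over all pairs. It was 69.2 and 70.8 for the pairs of the third D387A-Cflar-Casp1 embryo and 13.2 for the other pair, and 66.2 and 65.6 for the pairs of the third C362A-Cflar embryo against 24.3 for the other pair. It was also 68.9 between the first and the third Mlkl KO embryos of the C362A set. The third Mlkl KO embryo of the D387A set held gastric transcripts at a summed 131.9 CPM (reads scaled to the library size alone), with Tff1 the most abundant, against 2.02 and 1.37 CPM in the other controls. Of the D387A-Cflar-Casp1 embryos, the first and second held erythroid transcripts at 4339 and 2110 CPM, and the third at 749.9 CPM. Mlkl reads also set these embryos apart, at 3.13, 3.73 and 23.0 RPKM, and the last lay within the range of the Ifnar1 group (22.9 to 27.9 RPKM). Casp1, Ifnar1 and Fadd in that embryo were at 0.127, 22.7 and 10.8 RPKM, near the other embryos of its group, and the source of the Mlkl difference was not tested.

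Cyp2d26 was the most abundant P450 gene of the control intestine, with a mean of 81.4 RPKM over the 6 Mlkl KO embryos of both sets. It belongs to a family of drug-oxidizing enzymes. Cyp51, which removes a methyl group from lanosterol in cholesterol synthesis, followed at 62.7 RPKM, and Cyp2j6, an enzyme of the arachidonic acid epoxygenase family, at 61.9 RPKM. Next came Cyp2w1 at 56.3 RPKM, Cyp3a13 at 49.3 RPKM, Cyp4f16 at 40.2 RPKM, Cyp2c68 at 37.0 RPKM and Cyp4f13 at 30.8 RPKM. Cyp2s1 (15.5 RPKM), Cyp20a1 (10.2 RPKM), Cyp4f40 (9.40 RPKM) and Cyp2c65 (9.30 RPKM) completed the 12 highest. Together the 100 genes took 0.119% of the reads on genes in Mlkl KO intestines of the D387A set (SD 0.00207, n = 3). The share was 0.1215% in D387A (SD 0.00250, n = 3), 0.0793% in D387A-Cflar (SD 0.0120, n = 3) and 0.110% in D387A-Cflar-Casp1 (SD 0.00539, n = 3). With added loss of Ifnar1 it was 0.114% (SD 0.00420, n = 3), and with added loss of Fadd 0.128% (SD 0.00519, n = 3). In the C362A set it was 0.135% in Mlkl KO (SD 0.00849, n = 3), 0.0984% in C362A (SD 0.000683, n = 3), 0.146% in C362A-Casp1 (SD 0.00471, n = 3) and 0.107% in C362A-Cflar (SD 0.00858, n = 3).

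**Figure D1:**
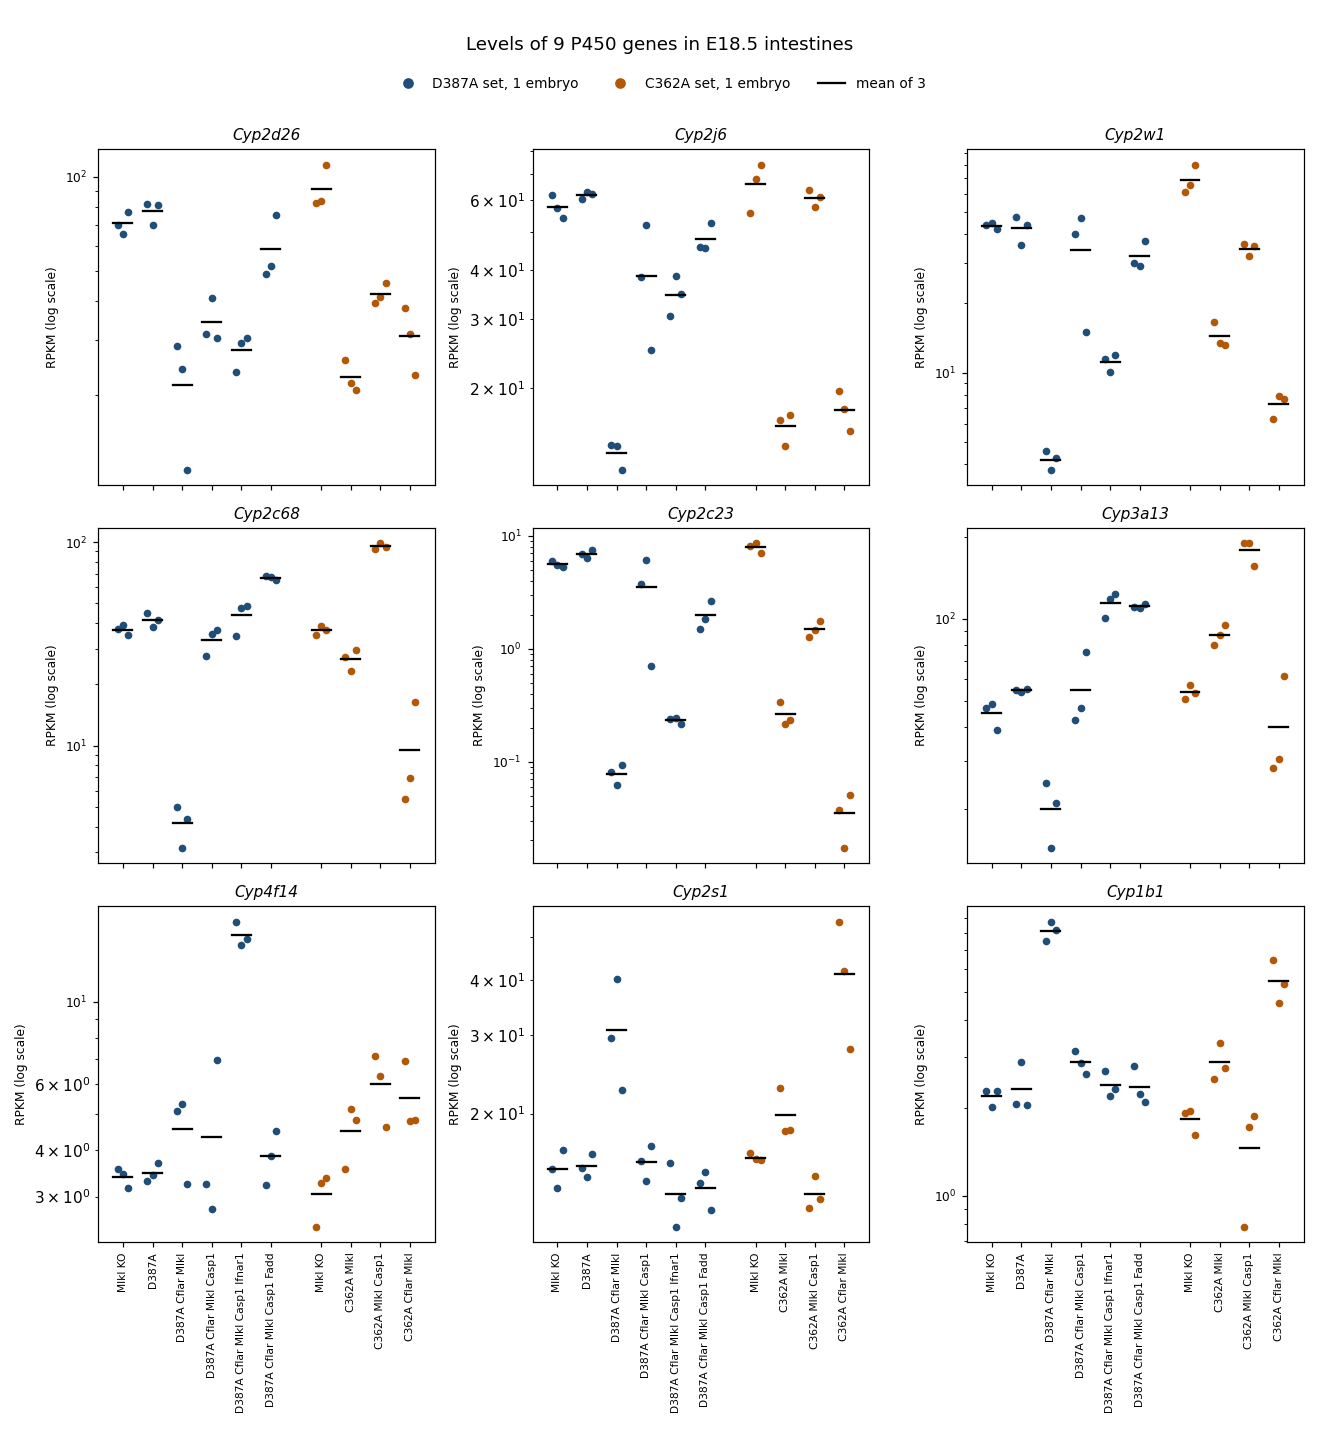
Level of 9 P450 genes in RPKM on a log scale in the 10 intestine groups, with a dot for each embryo and a line at the mean of 3. Cyp2c23 and Cyp2w1 sat far lower in D387A-Cflar than in Mlkl KO, and Cyp1b1 and Cyp2s1 sat higher in D387A-Cflar and C362A-Cflar than in the Mlkl KO controls of their sets.

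By role, 47 of the 100 genes belong to xenobiotic families (Cyp2a to Cyp2g, Cyp2t, Cyp2w, Cyp2ab and Cyp3a), 30 to families of fatty acid and eicosanoid oxidation (Cyp2j, Cyp2s, Cyp2u and Cyp4), 7 to sterol and bile acid metabolism and 6 to steroid hormone synthesis. The Cyp1 family, retinoic acid breakdown and vitamin D metabolism have 3 genes each, and Cyp20a1 has no known substrate. Genes with enough reads to test numbered 39 in the D387A set, 43 of the 100 in the C362A set and 20 in MEFs, 20 in all 3 and 44 in at least 1. In the D387A set 48 genes had reads but too few and 13 had none, against 40 and 17 with C362A, and 22 and 58 for MEFs. The highest mean level of an untested gene was 0.222, 0.214 and 0.278 RPKM in these sets. Of the xenobiotic genes 12 were tested in the D387A set and 14 in the C362A set, and of the fatty acid genes 17 in each. A gene passes a filter on low counts through the groups where it is higher, so counts of tested genes describe those genes and not the 100. Only uniquely aligned reads were counted, so levels of near copies, among them the Cyp2c, Cyp3a and Cyp4a genes, are uncertain. A further limit is that 28 of the 100 genes overlap another gene, Cyp51 with Akap9 and Cyp4f18 with Zfp961 among them, and the reads were not stated to be counted by strand.

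The D387A knock-in without loss of Cflar left the tested P450 genes close to the controls, whereas D387A-Cflar intestines held far less of most of them. A gene was called at an adjusted p under 0.05 (edgeR quasi-likelihood test, adjusted over all genes tested) with a log2 fold change above 1 or below -1. In D387A against Mlkl KO, 0 of 39 P450 genes were called, beside 0.00545% of 18360 genes. edgeR gave 2 P450 genes at an unadjusted p under 0.05, and DESeq2 and limma-voom also called 0. In D387A-Cflar against Mlkl KO, 3 P450 genes rose, beside 9.40% of all genes tested, and 24 fell, beside 12.8%. The median log2 fold change was -1.32 over the tested P450 genes and -0.01 over all genes. Of the 12 xenobiotic genes 1 rose and 11 fell (median -2.59), and of the 17 fatty acid genes 1 rose and 10 fell (median -1.32). Of 5 sterol genes 2 fell (Cyp27a1, and Cyp46a1, named after its values were seen and at -0.92 without the third D387A-Cflar embryo), the 1 tested steroid hormone gene fell, and the 1 tested Cyp1 gene rose. The tested genes of retinoic acid breakdown and vitamin D, 1 each, and Cyp20a1 were not called.

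Markers of the absorptive enterocyte moved with these falls. The 16 markers summed to 49180, 49900 and 44210 CPM in the Mlkl KO embryos of the D387A set and to 5144, 3393 and 3872 CPM in D387A-Cflar, with 14 of 16 lower and a median log2 fold change of -3.10. Apoa4 was the most abundant of them in all these embryos but the second D387A-Cflar embryo, where Vil1 was, and 0 markers were at 0 reads. Markers of intestinal epithelium at large summed to 3906, 3724 and 3511 CPM in Mlkl KO and to 4218, 4043 and 4000 CPM in D387A-Cflar, with 1 of 8 (Krt8) higher. Fewer enterocytes and less P450 RNA in each enterocyte cannot be told apart in whole intestines, and the part of the marker shift in the P450 falls was not tested.

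**Figure D2:**
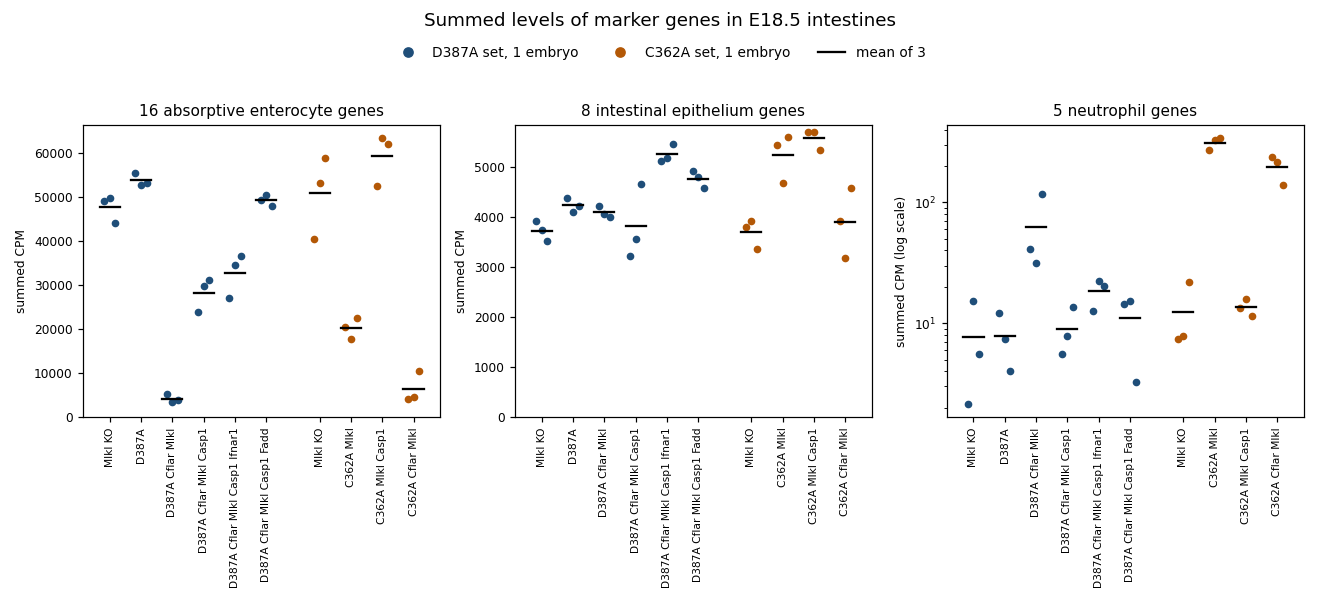
Summed level in CPM of 16 absorptive enterocyte genes, 8 intestinal epithelium genes and 5 neutrophil genes in each intestine library by group, the last on a log scale. The enterocyte sum lay between 3393 and 5144 CPM in D387A-Cflar and between 44210 and 49900 CPM in the Mlkl KO embryos of that set, while the epithelium sums of these groups lay close together.

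With loss of Casp1 in addition, many P450 genes stood above their level in D387A-Cflar. Against D387A-Cflar, 16 of 39 genes were higher in D387A-Cflar-Casp1, beside 8.88% of all genes, and 2 were lower, beside 4.51%. Of the higher genes 8 were xenobiotic and 6 fatty acid genes, and the median log2 fold change was 0.93 over the P450 genes and 0.03 over all genes. Against Mlkl KO, edgeR called 0 genes higher in D387A-Cflar-Casp1, beside 2.16%, and 3 lower, beside 2.18%, with 13 at an unadjusted p under 0.05 and a median of -0.35. They were Cyp4f39, Cyp2c55 and Cyp2d26. The call of Cyp2d26 ended, at -0.99, -0.995 and -0.98, without the third Mlkl KO embryo or the first or the third D387A-Cflar-Casp1 embryo, and that of Cyp2c55, at adjusted p of 0.196, 0.101 and 0.0877, without the first Mlkl KO embryo or the first or second D387A-Cflar-Casp1 embryo. Each of the 3 calls also ended under an alternative, Cyp2d26 on raw library totals (-0.93), Cyp2c55 with only the libraries compared (adjusted p = 0.0903) and Cyp4f39 by DESeq2, which gave it no adjusted p. Enterocyte markers summed to 23750, 29890 and 31220 CPM in these embryos, with 14 of 16 above D387A-Cflar and 4 of 16 below Mlkl KO. Against Mlkl KO 6 of 10 hepatocyte genes were lower and 1 higher, 4 of 5 tested gastric genes were lower and 3 of 5 erythroid genes higher, with 1 of 6 macrophage genes higher and 1 of 7 tested pancreatic acinar genes lower. Against D387A-Cflar all 5 erythroid genes were higher (median 1.99), 3 of 4 tested neutrophil genes were lower (median -2.86), and of 10 hepatocyte genes 4 were higher and 2 lower. The part of these cell types was not tested. Without the third D387A-Cflar-Casp1 embryo the counts were 18 higher and 5 lower against D387A-Cflar, with 16 calls shared with the fit of all libraries, and 3 lower against Mlkl KO, with 2 shared. The count against Mlkl KO was 1 without the first D387A-Cflar-Casp1 embryo and 6 without the second.

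Embryos that also lacked Ifnar1 or Fadd had Cyp3a13 above the controls and fewer called P450 genes than D387A-Cflar, and the counts were not tested against each other. In D387A-Cflar-Casp1-Ifnar1 against Mlkl KO, 2 genes were higher (Cyp3a13 and Cyp4f14), beside 6.76%, and 11 were lower, beside 5.64%, with a median of -0.71 against -0.00 over all genes. Of the 11, 6 were xenobiotic and 5 fatty acid genes. Against D387A-Cflar-Casp1 the same embryos had 3 higher, beside 3.28%, and 6 lower, beside 2.03%, with a median of -0.27. This count of 9 was 4 with only the libraries compared, where Cyp2c70, Cyp2j13 and Cyp2d34 were not called (adjusted p of 0.0579, 0.0544 and 0.0706), and 5 at a mean of at least 50 reads. Their enterocyte markers summed to 27010, 34490 and 36510 CPM, and pancreatic acinar markers, with Ctrb1 the most abundant, to 58.5, 137.0 and 92.1 CPM against 12.7, 16.8 and 57.7 CPM in Mlkl KO. Against Mlkl KO 7 of 10 hepatocyte genes were lower and 1 higher (median -3.17), all 5 tested gastric genes were lower, and of 4 tested neutrophil genes 2 were higher and 1 lower. Of 16 enterocyte markers 1 was higher and 4 lower. There 3 of 7 tested pancreatic acinar and 2 of 6 macrophage genes were higher, and 2 of 5 erythroid genes were lower. Against D387A-Cflar-Casp1, 4 of 5 erythroid genes were lower and all 7 tested pancreatic acinar genes were higher. In that comparison 1 of 16 enterocyte markers was higher and 3 lower, and of 10 hepatocyte genes 1 was higher and 3 lower. The part of these markers in the P450 values was not tested. In D387A-Cflar-Casp1-Fadd against Mlkl KO, 1 gene was higher, beside 2.81%, and 1 was lower (Cyp2c23), beside 0.975%, with a median of -0.22. Cyp2c23 had a log2 fold change of -1.49 (SE 0.42, adjusted p = 0.0195) and was no longer called, at adjusted p from 0.0587 to 0.0783, without the first Mlkl KO embryo or without the first or second D387A-Cflar-Casp1-Fadd embryo, each of which left a count of 1. Against D387A-Cflar-Casp1, 3 xenobiotic genes were higher with Fadd loss, beside 2.56%, and edgeR called 0 lower, beside 0.877%, with 13 at an unadjusted p under 0.05. That count was 0 without the first D387A-Cflar-Casp1 embryo, 1 without the second and 5 (3 higher, 2 lower) without the third, and on raw library totals it was 1 higher and 1 lower. Enterocyte markers in D387A-Cflar-Casp1-Fadd summed to 49450, 50540 and 47980 CPM, with 1 of 16 above Mlkl KO and a median log2 fold change of 0.07. Against D387A-Cflar-Casp1, 4 of 16 enterocyte markers were higher (median 0.78), as were 1 of 10 hepatocyte and 1 of 7 tested pancreatic acinar genes. All 5 erythroid genes were lower in that comparison. The part of these cell types in the P450 values was not tested.

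In the C362A set the catalytically inactive allele was examined alone, with loss of Casp1 and with loss of Cflar. C362A intestines had 3 of 43 tested P450 genes higher than Mlkl KO, beside 10.4% of 19408 genes, and 17 lower, beside 7.55%, with a median log2 fold change of -0.42 against 0.02 over all genes. C362A-Cflar had 4 higher, beside 13.4%, and 17 lower, beside 11.2%, with a median of -0.64 against 0.03. C362A-Casp1 had 3 higher, beside 6.79%, and 7 lower, beside 3.73%, with a median of -0.19. Among the lower genes of C362A were 9 of 17 fatty acid genes, 7 of 14 xenobiotic genes and 1 of 5 sterol genes. The sterol gene was Cyp39a1, named after its values were seen, and it was at -0.88 and -0.98, short of the fold threshold, without the first Mlkl KO embryo or the third C362A embryo. It was also short of that threshold, from -0.85 to -0.995, under 5 alternatives (limma-voom, raw library totals, a mean of at least 50 reads, a prior count of 2 and only the libraries compared). In C362A-Cflar 9 fatty acid genes and 6 xenobiotic genes were lower. These comparisons share their controls. Without the third C362A-Cflar embryo the counts for C362A-Cflar were 6 higher and 18 lower, with 21 calls shared.

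On the C362A allele too, P450 genes stood higher where Casp1 was lost. C362A-Casp1 against C362A had 14 genes higher, beside 5.60%, and 1 lower, beside 5.72%, with a median of 0.42 against -0.02 over all genes. 8 of the 14 higher genes were xenobiotic and 6 were fatty acid genes. C362A-Cflar against C362A had 3 higher, beside 1.45%, and 5 lower, beside 4.62%, with a median of 0.00. The 5 were Cyp2c23, Cyp2c68, Cyp2j13, Cyp3a13 and Cyp2u1, the last named after its values were seen, and Cyp3a13 was at -0.92 and -0.95, short of the fold threshold, without the first or second C362A-Cflar embryo. The total of 8 was 4, all lower, without the first C362A-Cflar embryo, and 13 (4 higher, 9 lower, 8 shared) without the third. Enterocyte markers summed to 40490, 53210 and 58830 CPM in Mlkl KO, 20420, 17790 and 22400 CPM in C362A, 52550, 63390 and 62160 CPM in C362A-Casp1, and 4158, 4542 and 10360 CPM in C362A-Cflar. They were lower for 11 of 16 in C362A and for 12 of 16 in C362A-Cflar, and 11 of 16 were higher in C362A-Casp1 than in C362A. Neutrophil markers, led by S100a9, summed to 7.36, 7.81 and 21.9 CPM in Mlkl KO, 270.8, 327.0 and 337.9 CPM in C362A, 13.4, 15.9 and 11.4 CPM in C362A-Casp1, and 236.2, 214.9 and 138.0 CPM in C362A-Cflar. In C362A-Casp1 against C362A 2 of 4 tested gastric genes were lower (median -2.96), and of 10 hepatocyte genes 2 were higher and 2 lower. The part of these cell types in the P450 values was not tested.

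Library scaling set part of the balance of higher and lower calls. With raw library totals in place of scaled ones, the median log2 fold change of all genes was 0.21 in D387A-Cflar against Mlkl KO, 0.15 in D387A-Cflar-Casp1 against Mlkl KO, -0.23 in D387A-Cflar-Casp1-Fadd against D387A-Cflar-Casp1, 0.17 in C362A, -0.13 in C362A-Casp1 and 0.31 in C362A-Cflar against Mlkl KO. It was -0.295 in C362A-Casp1 and 0.105 in C362A-Cflar, both against C362A. On scaled libraries these medians lay between -0.03 and 0.03. P450 calls on raw totals were 8 higher and 16 lower in C362A-Cflar against Mlkl KO, 10 higher and 3 lower in C362A-Casp1 against C362A, and 4 higher and 4 lower in C362A-Cflar against C362A. In D387A-Cflar against Mlkl KO they were 3 higher and 22 lower.

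**Figure D3:**
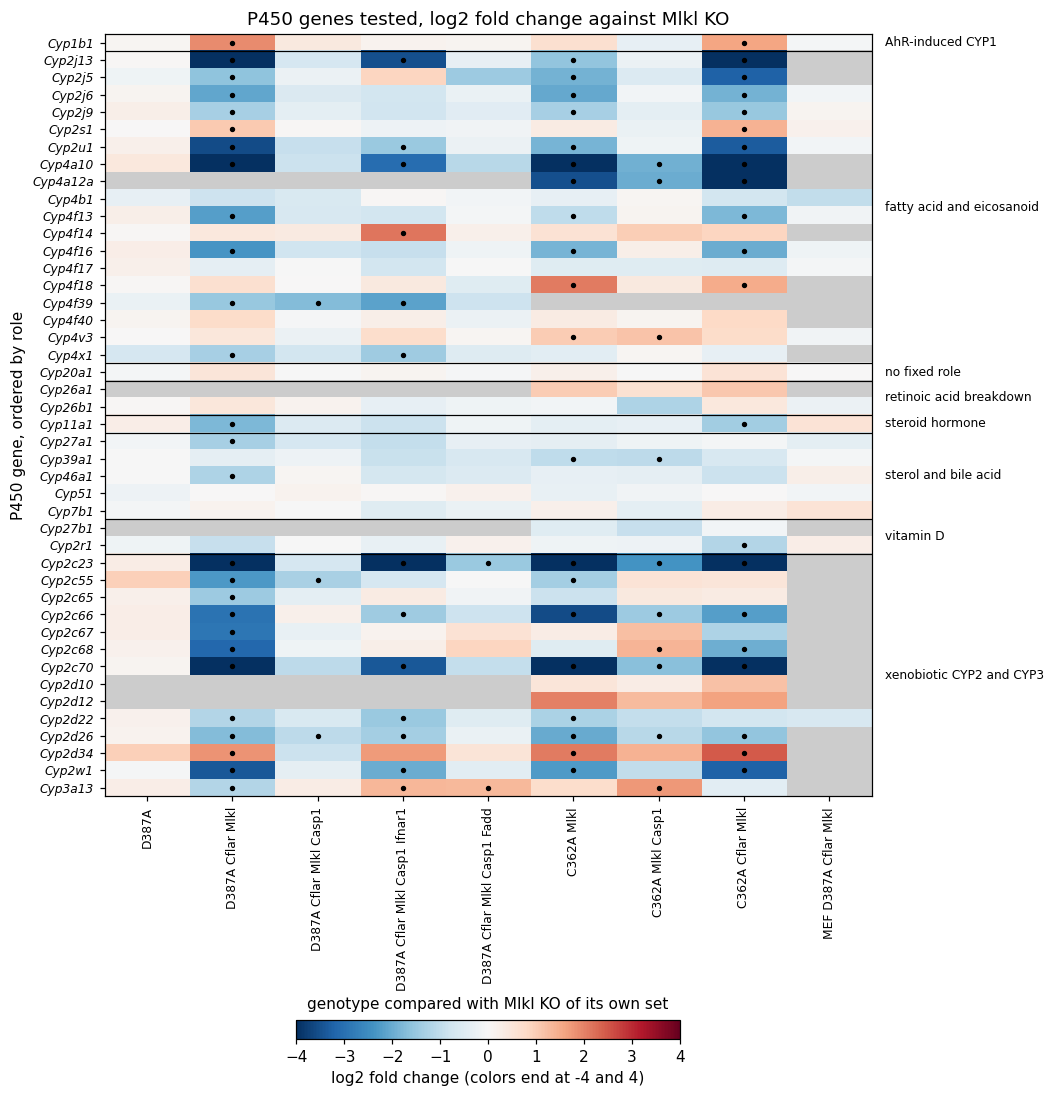
Log2 fold change of 44 tested P450 genes, ordered by role, against the Mlkl KO controls of their own set in 8 intestine comparisons and in MEFs. Blue or red shading ends at a log2 fold change of 4 in either direction, black dots mark called genes and grey marks genes not tested, and most called genes of D387A-Cflar, C362A and C362A-Cflar lay below their controls.

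Xenobiotic Cyp2c genes were among the largest falls. Cyp2c70, a member of this family that makes muricholic bile acids in the mouse, had 4.52, 3.61 and 3.17 RPKM in Mlkl KO embryos of the D387A set and 0, 0.0260 and 0 RPKM in D387A-Cflar. These were 381 reads against 1 read, a 456.6-fold difference with an exact 95% interval of 81.5 to 18080. Intervals and floors of this kind cover counting error only. Levels were 2.12, 2.88 and 0.444 RPKM in D387A-Cflar-Casp1, 0.297, 0.473 and 0.295 RPKM with added loss of Ifnar1 and 1.21, 2.13 and 2.56 RPKM with added loss of Fadd. Every D387A-Cflar-Casp1 embryo thus lay above every D387A-Cflar embryo, and the third of them lay within the range of the Ifnar1 group. The fitted log2 fold change was -8.35 (SE 0.85, adjusted p = 2.04e-07) in D387A-Cflar, which depends on the prior count, and -3.39 (SE 0.48, adjusted p = 2.68e-05) in D387A-Cflar-Casp1-Ifnar1. Cyp2c70 of the C362A set had 2.76, 4.39 and 6.42 RPKM in Mlkl KO, 0.232, 0.104 and 0.232 RPKM in C362A, 1.22, 1.11 and 1.90 RPKM in C362A-Casp1 and 0.0471, 0.258 and 0.106 RPKM in C362A-Cflar. C362A and C362A-Cflar overlapped each other and lay below every control.

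Cyp2c23, an arachidonic acid epoxygenase, had 5.96, 5.55 and 5.31 RPKM in Mlkl KO embryos of the D387A set, 6.87, 6.31 and 7.48 RPKM in D387A and 0.0800, 0.0621 and 0.0926 RPKM in D387A-Cflar. It stood at 3.71, 6.12 and 0.707 RPKM in D387A-Cflar-Casp1, 0.236, 0.244 and 0.215 RPKM with added loss of Ifnar1, and 1.497, 1.83 and 2.67 RPKM with added loss of Fadd. The D387A-Cflar-Casp1 embryos spread over more range than any other group, since the third embryo was far below the other embryos of its group. In D387A-Cflar against Mlkl KO the log2 fold change was -6.11 (SE 0.64, adjusted p = 3.07e-07), and with added loss of Ifnar1 it was -3.91 (SE 0.55, adjusted p = 0.000285) against D387A-Cflar-Casp1. On the other allele it had 8.08, 8.61 and 7.09 RPKM in Mlkl KO, 0.335, 0.215 and 0.234 RPKM in C362A, 1.27, 1.47 and 1.76 RPKM in C362A-Casp1, and 0.0374, 0.0171 and 0.0508 RPKM in C362A-Cflar. These 4 groups did not overlap, and C362A-Cflar was lowest, at a log2 fold change of -7.73 (SE 0.30, adjusted p = 4.80e-10) against Mlkl KO.

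Cyp2c68, of the Cyp2c cluster on chromosome 19, fell where Cflar was lost and Casp1 was present. In C362A, with Cflar intact, it lay below every control as well. It had 37.3, 39.1 and 34.8 RPKM in Mlkl KO and 4.99, 3.14 and 4.33 RPKM in D387A-Cflar, and then 27.5, 35.2 and 36.8 RPKM in D387A-Cflar-Casp1 and 68.0, 67.1 and 64.9 RPKM in D387A-Cflar-Casp1-Fadd. All 3 embryos with Fadd loss lay above every control of the set. Against Mlkl KO it was at a log2 fold change of -3.15 (SE 0.16, adjusted p = 4.95e-11) in D387A-Cflar and 0.85 (SE 0.14, adjusted p = 0.000449) in D387A-Cflar-Casp1-Fadd, the latter short of the fold threshold. Against D387A-Cflar-Casp1 the value with Fadd loss was 1.01 (SE 0.14, adjusted p = 0.000145), or 0.89 without the first D387A-Cflar-Casp1 embryo, 0.99 without the first D387A-Cflar-Casp1-Fadd embryo and 0.82 on raw library totals, all short of the threshold. Cyp2c68 of the C362A set had 35.1, 38.6 and 37.1 RPKM in Mlkl KO and 27.3, 23.4 and 29.4 RPKM in C362A. It had 92.1, 98.8 and 94.8 RPKM in C362A-Casp1 and 5.49, 6.90 and 16.3 RPKM in C362A-Cflar. C362A-Casp1 embryos were the highest of all intestines, and those of C362A-Cflar the lowest of their set, with log2 fold changes of 1.37 (SE 0.27, adjusted p = 0.00159) and -1.95 (SE 0.28, adjusted p = 4.82e-05) against Mlkl KO. Cyp2c65, of the same cluster, ran from 9.54 to 11.02 RPKM in Mlkl KO and from 2.90 to 4.96 RPKM in D387A-Cflar, at a log2 fold change of -1.45 (SE 0.21, adjusted p = 1.16e-05).

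Cyp2w1 and Cyp2d26, further enzymes of the xenobiotic families, fell on both alleles. Cyp2w1 had 43.7, 44.8 and 42.2 RPKM in Mlkl KO, 47.4, 35.8 and 44.0 RPKM in D387A and 4.54, 3.78 and 4.23 RPKM in D387A-Cflar. It had 40.1, 47.1 and 15.01 RPKM in D387A-Cflar-Casp1, 11.4, 10.04 and 11.9 RPKM with added loss of Ifnar1, and 30.0, 29.2 and 37.4 RPKM with added loss of Fadd. The first and second D387A-Cflar-Casp1 embryos were at the level of the controls and the third was not. The log2 fold change against Mlkl KO was -3.38 (SE 0.29, adjusted p = 3.00e-08) in D387A-Cflar and -1.97 (SE 0.27, adjusted p = 1.68e-05) in D387A-Cflar-Casp1-Ifnar1. Cyp2w1 of the C362A set had 61.0, 65.6 and 80.4 RPKM in Mlkl KO, 16.7, 13.5 and 13.2 RPKM in C362A, 36.1, 32.03 and 35.7 RPKM in C362A-Casp1 and 6.31, 7.92 and 7.71 RPKM in C362A-Cflar. These groups did not overlap, and the log2 fold change was -2.25 (SE 0.14, adjusted p = 1.45e-08) in C362A and -3.24 (SE 0.14, adjusted p = 1.43e-09) in C362A-Cflar. Cyp2d26 ran from 65.8 to 77.3 RPKM in Mlkl KO and from 11.5 to 28.8 RPKM in D387A-Cflar. In the controls of C362A it ran from 82.2 to 109.4 RPKM, and in C362A from 20.7 to 26.0 RPKM. Its log2 fold change was -1.72 (SE 0.24, adjusted p = 8.43e-06) in D387A-Cflar and -2.005 (SE 0.17, adjusted p = 3.68e-07) in C362A.

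Cyp3a13, the most abundant Cyp3a gene of these intestines and a relative of the human enzyme that oxidizes many drugs, moved in both directions. It had 47.1, 48.7 and 39.1 RPKM in Mlkl KO, 24.9, 14.4 and 21.1 RPKM in D387A-Cflar and 42.6, 47.1 and 75.2 RPKM in D387A-Cflar-Casp1. With added loss of Ifnar1 it had 100.9, 118.0 and 123.6 RPKM, and with added loss of Fadd 110.5, 109.1 and 113.6 RPKM. The Ifnar1 and Fadd groups lay above every other embryo of the set, and D387A-Cflar lay below. The log2 fold change against Mlkl KO was -1.16 (SE 0.19, adjusted p = 4.91e-05) in D387A-Cflar, 1.34 (SE 0.19, adjusted p = 2.39e-05) in D387A-Cflar-Casp1-Ifnar1 and 1.30 (SE 0.19, adjusted p = 0.00014) in D387A-Cflar-Casp1-Fadd. The fall in D387A-Cflar was -0.97 and short of the fold threshold without its second embryo, and -0.94 on raw library totals. Against D387A-Cflar-Casp1 the gene was at 1.05 (SE 0.19, adjusted p = 0.00101) with Ifnar1 loss and 1.01 (SE 0.19, adjusted p = 0.00138) with Fadd loss. The first of these was 0.90, 0.95 and 0.99 without the first or second D387A-Cflar-Casp1 embryo or the third Ifnar1 embryo, and the second was 0.86 and 0.92 without the first or second D387A-Cflar-Casp1 embryo, all short of the threshold. On raw library totals they were 0.97 and 0.83. Cyp3a13 of the C362A set had 50.6, 57.0 and 53.3 RPKM in Mlkl KO, 79.9, 87.1 and 94.9 RPKM in C362A, 188.9, 189.3 and 156.7 RPKM in C362A-Casp1, and 28.4, 30.5 and 61.8 RPKM in C362A-Cflar. C362A-Casp1 embryos were the highest of all, at a log2 fold change of 1.73 (SE 0.23, adjusted p = 7.82e-05) against Mlkl KO, and the third C362A-Cflar embryo lay above the controls while the others lay below them. C362A alone was at 0.70 (SE 0.23, adjusted p = 0.0232), short of the fold threshold, and C362A-Cflar was at -1.12 (SE 0.23, adjusted p = 0.00416) against C362A, or -0.92 and -0.95 without its first or second embryo and -0.998 on raw library totals.

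Cyp2d34, a low-level gene of the drug-oxidizing Cyp2d family, gave calls that depended on the processing. It had 0.684, 0.0648 and 0.586 RPKM in Mlkl KO of the D387A set, 1.94, 2.29 and 0.542 RPKM in D387A-Cflar and 0.140, 0 and 0.617 RPKM in D387A-Cflar-Casp1. D387A-Cflar overlapped both other groups. Its log2 fold change of 1.81 (SE 0.76, adjusted p = 0.0477) in D387A-Cflar against Mlkl KO was no longer called in 12 fits with a library left out, at adjusted p from 0.0501 to 0.161. They were those without any of the 3 Mlkl KO, D387A or D387A-Cflar-Casp1-Ifnar1 embryos, the first or second D387A-Cflar embryo or the first D387A-Cflar-Casp1 embryo. It was also not called by DESeq2, by limma-voom or with the replicate block, at adjusted p of 0.0990, 0.0646 and 0.0702. In C362A-Cflar, at 6.88, 4.95 and 1.51 RPKM against 0.272, 0.530 and 1.69 RPKM in its controls, it was at 2.45 (SE 0.63, adjusted p = 0.00467), and the third embryo of C362A-Cflar lay within the control range.

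Among the fatty acid genes, Cyp2j6, Cyp4f13 and Cyp4f16 had the most reads in Mlkl KO. Cyp2j6 had 62.0, 57.5 and 54.0 RPKM in Mlkl KO, 14.3, 14.2 and 12.4 RPKM in D387A-Cflar and 38.4, 52.0 and 25.1 RPKM in D387A-Cflar-Casp1. In the other set it had 55.7, 68.0 and 73.9 RPKM in Mlkl KO, 16.6, 14.3 and 17.1 RPKM in C362A, 63.8, 57.9 and 61.0 RPKM in C362A-Casp1 and 19.7, 17.7 and 15.6 RPKM in C362A-Cflar. C362A-Casp1 embryos lay within the range of their controls, and C362A and C362A-Cflar lay far below. The log2 fold change was -2.08 (SE 0.18, adjusted p = 2.75e-08) in D387A-Cflar, -2.04 (SE 0.13, adjusted p = 2.75e-08) in C362A and 1.93 (SE 0.13, adjusted p = 2.26e-07) in C362A-Casp1 against C362A. Cyp4f16, of the family that hydroxylates leukotrienes and long fatty acids, had 43.3, 40.6 and 36.1 RPKM in Mlkl KO and 7.59, 8.13 and 7.70 RPKM in D387A-Cflar, at a log2 fold change of -2.36 (SE 0.13, adjusted p = 1.42e-10). Cyp4f13 ran from 26.8 to 31.0 RPKM in Mlkl KO, from 5.70 to 7.03 RPKM in D387A-Cflar and from 15.7 to 20.4 RPKM in D387A-Cflar-Casp1. The D387A-Cflar-Casp1 embryos lay between those groups without overlap, and D387A-Cflar was at a log2 fold change of -2.20 (SE 0.10, adjusted p = 1.94e-11) against Mlkl KO.

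Not all Cyp4f genes fell. Cyp4f14, a leukotriene hydroxylase, had 3.56, 3.45 and 3.16 RPKM in Mlkl KO, 3.25, 2.79 and 6.997 RPKM in D387A-Cflar-Casp1 and 16.4, 14.2 and 14.8 RPKM in D387A-Cflar-Casp1-Ifnar1. Only the Ifnar1 embryos stood above the rest of their set, at a log2 fold change of 2.16 (SE 0.26, adjusted p = 5.30e-06) against Mlkl KO. Cyp4f18, a leukotriene hydroxylase of neutrophils, had 1.25, 1.96 and 2.43 RPKM in Mlkl KO of the C362A set, 7.37, 9.04 and 7.14 RPKM in C362A, 2.60, 2.86 and 1.87 RPKM in C362A-Casp1, and 5.20, 6.08 and 4.60 RPKM in C362A-Cflar. C362A and C362A-Cflar lay above every embryo of the other groups of the set, where the neutrophil sum was also above theirs, and the part of neutrophils was not tested. In D387A-Cflar against Mlkl KO, where 3 of 4 tested neutrophil genes were higher and 1 lower, Cyp4f18 was not called. The log2 fold change was 2.06 (SE 0.23, adjusted p = 5.75e-06) in C362A and 1.496 (SE 0.23, adjusted p = 8.72e-05) in C362A-Cflar against Mlkl KO, and -1.68 (SE 0.23, adjusted p = 7.82e-05) in C362A-Casp1 against C362A. Cyp4f40 ran from 7.97 to 10.7 RPKM in Mlkl KO and from 14.1 to 17.6 RPKM in D387A-Cflar, at 0.75 (SE 0.16, adjusted p = 0.000575), short of the fold threshold. Cyp4v3, another fatty acid gene, rose against Mlkl KO in C362A, at 1.01 (SE 0.195, adjusted p = 0.000741), and in C362A-Casp1, at 1.15 (SE 0.196, adjusted p = 0.000523). The call in C362A ended, at 0.94 to 0.98, in 3 fits with a library left out. It also ended, at 0.988 to 0.997, under 4 alternatives. The call in C362A-Casp1 ended, at 0.97, without the first C362A-Casp1 embryo.

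Cyp2s1, which is expressed in epithelia and can act on prostaglandin endoperoxides, rose where Cflar was lost and Casp1 was present. It had 14.98, 13.6 and 16.5 RPKM in Mlkl KO, 29.7, 40.1 and 22.6 RPKM in D387A-Cflar and 15.6, 14.1 and 16.9 RPKM in D387A-Cflar-Casp1. Its levels in the C362A set were 16.3, 15.8 and 15.7 RPKM in Mlkl KO, 22.9, 18.3 and 18.3 RPKM in C362A, and 54.1, 41.9 and 27.9 RPKM in C362A-Cflar. Every D387A-Cflar, C362A and C362A-Cflar embryo lay above every control. Against Mlkl KO the log2 fold change was 1.38 (SE 0.18, adjusted p = 2.22e-05) in C362A-Cflar and 1.03 (SE 0.16, adjusted p = 2.90e-05) in D387A-Cflar, the latter 0.97 without the second Mlkl KO embryo, 0.80 without the second D387A-Cflar embryo and 0.999 by limma-voom, all short of the fold threshold.

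Some low-level fatty acid genes had 0 or few reads in some groups. Such genes pass the count filter through the groups where they are higher, so their falls are not independent of the filter. Cyp4a10, a fatty acid omega-hydroxylase under the control of PPARα, had 0.191, 0.274 and 0.403 RPKM in Mlkl KO of the D387A set and 0 reads in all 3 D387A-Cflar embryos, against 36 reads in the controls. It was at least 14.4-fold lower, against a floor of 3 reads over the group. In the other set it had 0.262, 0.375 and 0.331 RPKM in Mlkl KO and 0 reads in C362A and in C362A-Cflar, at least 19.0-fold and at least 18-fold lower against 54 reads. It was at least 7.93-fold higher in D387A-Cflar-Casp1 (22 reads) than in D387A-Cflar. The rise in C362A-Casp1 over C362A, at least 4.93-fold on 13 reads, had an adjusted p of 0.0156, which was 0.0555 without the first C362A-Casp1 embryo. Cyp4a12a, of the same family, had 48 reads in Mlkl KO of the C362A set and 0 in C362A-Cflar, at least 16-fold lower. Medians of the P450 genes were the same with these genes at their bounds. Cyp2j13 had 1.09, 0.612 and 0.651 RPKM in Mlkl KO and 0.0197, 0 and 0.0182 RPKM in D387A-Cflar, far below every control.

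Of the Cyp1 family, whose genes are induced by the aryl hydrocarbon receptor, only Cyp1b1 was tested, and it rose where Cflar was lost and Casp1 was present. Cyp1b1 had 2.28, 2.02 and 2.29 RPKM in Mlkl KO, 7.50, 8.74 and 8.18 RPKM in D387A-Cflar and 3.15, 2.86 and 2.61 RPKM in D387A-Cflar-Casp1. Its levels in the C362A set were 1.93, 1.95 and 1.61 RPKM in Mlkl KO, 2.51, 3.35 and 2.74 RPKM in C362A, 0.784, 1.73 and 1.87 RPKM in C362A-Casp1 and 6.44, 4.58 and 5.34 RPKM in C362A-Cflar. D387A-Cflar and C362A-Cflar embryos were above all others of their sets, and D387A-Cflar-Casp1 and C362A embryos were above their controls. The log2 fold change was 1.89 (SE 0.14, adjusted p = 5.07e-09) in D387A-Cflar, 1.57 (SE 0.25, adjusted p = 0.00011) in C362A-Cflar and -1.502 (SE 0.14, adjusted p = 1.81e-07) in D387A-Cflar-Casp1 against D387A-Cflar. Cyp1a1 had at most 5 reads in any library. Of the 6 targets of the receptor outside the family 3 were tested. In D387A-Cflar against Mlkl KO edgeR called 0 of them, with 1 at an unadjusted p under 0.05 and a median log2 fold change of 0.18, and in C362A-Cflar 0, with 1 and 0.33. Ahr itself ranged from 3.77 to 7.24 RPKM over the intestines.

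The remaining roles held fewer calls. Cyp26b1, which breaks down retinoic acid, had 1.94, 2.26 and 1.58 RPKM in Mlkl KO and 3.32, 2.19 and 2.46 RPKM in D387A-Cflar, groups that overlapped, and its log2 fold change was 0.46 (SE 0.20, adjusted p = 0.0608). In C362A-Cflar its embryos were spread from 0.914 to 5.90 RPKM. Cyp26a1 of the same pathway lay between 0.0227 and 0.329 RPKM in the intestines. Of the vitamin D genes, Cyp27b1, which makes the active hormone, lay between 0 and 0.215 RPKM, and Cyp24a1, which inactivates it, had at most 6 reads in any library. Cyp2r1, a vitamin D 25-hydroxylase named after its values were seen, fell in C362A-Cflar (log2 fold change -1.16, SE 0.34, adjusted p = 0.0102), at -0.97 and -0.89, short of the fold threshold, without the first or second C362A-Cflar embryo, and -0.895 on raw library totals. Cyp27a1, a mitochondrial enzyme of bile acid synthesis, had 3.38, 3.50 and 4.26 RPKM in Mlkl KO and 1.12, 1.84 and 1.48 RPKM in D387A-Cflar. D387A-Cflar lay below the controls without overlap, at a log2 fold change of -1.33 (SE 0.16, adjusted p = 2.03e-06). In C362A-Cflar Cyp27a1 ran from 4.35 to 8.69 RPKM, across the control range of 4.82 to 9.47 RPKM. Cyp51 was not called in any comparison, with 61.0, 55.4 and 61.1 RPKM in Mlkl KO and 66.9, 73.3 and 39.1 RPKM in D387A-Cflar. Cyp7b1, which hydroxylates oxysterols, lay between 2.17 and 2.79 RPKM in Mlkl KO and between 2.46 and 3.03 RPKM in D387A-Cflar, and was not called. Cyp20a1 had 9.84, 9.76 and 10.3 RPKM in Mlkl KO and 13.8, 13.5 and 14.2 RPKM in D387A-Cflar, without overlap, at a log2 fold change of 0.47 (SE 0.08, adjusted p = 0.000123) that was short of the fold threshold.

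Cyp11a1, which starts steroid hormone synthesis and was picked after its values were seen, was the only steroid gene with enough reads to test. It had 5.59, 3.62 and 6.79 RPKM in Mlkl KO of the D387A set and 1.83, 1.37 and 1.40 RPKM in D387A-Cflar, below every control, at a log2 fold change of -1.80 (SE 0.37, adjusted p = 0.000464). It was also lower in C362A-Cflar than in its controls, at -1.39 (SE 0.29, adjusted p = 0.00106). Both calls held with any library left out. Markers of the adrenal cortex moved with it. They summed to 7.31, 8.30 and 9.65 CPM in Mlkl KO, with Akr1b7 the most abundant, and to 1.56, 1.39 and 1.88 CPM in D387A-Cflar, where Star was, and both tested markers of 5 were lower. In C362A-Cflar 1 of 2 tested adrenal markers was lower (median -1.69). In C362A 1 of 2 was lower as well (median -1.14), while Cyp11a1 was not called there, at -0.39. The part of these markers in the value of Cyp11a1 was not tested.

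Whether Casp1 loss acted differently on the P450 genes of the alleles was tested as an interaction over all 30 intestines. The D387A pair lacked Cflar and the C362A pair had it, so the allele and Cflar cannot be told apart. Of 43 tested genes 7 had a larger rise or a smaller fall with Casp1 loss in the D387A pair, beside 4.90% of 19643 genes, and edgeR called 0 in the other direction, beside 0.825%, with 15 at an unadjusted p under 0.05. The median difference was 0.34 over the P450 genes and 0.07 over all genes, the latter 0.23 on raw library totals. In the same interaction 9 of 16 enterocyte markers were called, with 2 of 4 enteric neuron, 2 of 10 hepatocyte and 1 of 5 erythroid genes. The part of these markers in the P450 differences was not tested. Cyp2w1 differed by 1.79 on the log2 scale (SE 0.34, adjusted p = 0.00101), Cyp2j13 by 3.81 (SE 0.95, adjusted p = 0.00802) and Cyp2c23 by 2.96 (SE 0.80, adjusted p = 0.0128). Cyp2c68, Cyp2c70 and Cyp4f18 were also called, as was Cyp2u1, which was named after its values were seen. Cyp2c70 had 1 read in D387A-Cflar, so its difference of 4.48 depends on the prior count. Only Cyp2w1 and Cyp2c68 were called by limma-voom, where the adjusted p was 0.0518 for Cyp2j13 and 0.155 for Cyp2c23. With only the libraries compared 4 genes were called, and Cyp2c23, Cyp2c70 and Cyp4f18 were not, at adjusted p of 0.0626, 0.0538 and 0.0883. Cyp4f18 was not called with the replicate block either, and Cyp2u1 was at 0.99 with a prior count of 2. The call of Cyp2c68 ended without the second D387A-Cflar embryo, at 1.02 (adjusted p = 0.0541). That of Cyp2c70 ended without the first or the third D387A-Cflar embryo, the second D387A-Cflar-Casp1 embryo or the first or the third C362A embryo, at adjusted p from 0.0584 to 0.0801. Cyp4f18 was no longer called in 23 of the 30 fits that each left out a library, at adjusted p from 0.0507 to 0.191. It stayed called only without the third D387A-Cflar, second D387A-Cflar-Casp1, second Ifnar1, first Fadd or the third C362A-Cflar embryo, or the first or the third Mlkl KO embryo of the C362A set. Cyp2u1 was at 0.93, 0.87 and 0.90, short of the fold threshold, without the second D387A-Cflar embryo, the second D387A-Cflar-Casp1 embryo or the first C362A embryo. The count was 4 without the second D387A-Cflar embryo or the first C362A embryo, 7 without the third D387A-Cflar-Casp1 embryo, with 6 shared, and 8 without the third C362A-Cflar embryo.

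The effect of each allele with loss of Cflar, against its own Mlkl KO controls, was compared in the same way. By edgeR 0 of 43 P450 genes differed between D387A-Cflar and C362A-Cflar, beside 0.0764% of 19643 genes. At an unadjusted p under 0.05 there were 8, DESeq2 called 1 and limma-voom called 0. Cyp2c65 was nearest, with a log2 difference of -1.79 (SE 0.39, adjusted p = 0.0530), followed by Cyp27a1 at -1.24 (SE 0.33, adjusted p = 0.0748). The count was 1 without the first D387A-Cflar-Casp1 embryo or the first C362A-Cflar embryo, 2 without the third D387A-Cflar-Casp1 embryo, 3 without the third C362A-Cflar embryo and 4 without the third Mlkl KO embryo of the C362A set.

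In MEFs, which are cultured connective tissue cells, the P450 genes with the highest levels were Cyp51 at 142.5 RPKM, Cyp1b1 at 104.9 RPKM, Cyp20a1 at 32.7 RPKM, Cyp26b1 at 12.2 RPKM and Cyp4f16 at 6.50 RPKM, as means of 3 Mlkl KO cultures. Cyp1b1 had 89.2, 100.1 and 125.3 RPKM in Mlkl KO and 104.4, 104.8 and 91.2 RPKM in D387A-Cflar, and Cyp26b1 had 7.51, 11.3 and 17.7 RPKM and 8.47, 11.7 and 10.8 RPKM. The groups overlapped for both genes. By edgeR 0 of 20 tested genes were called, beside 0.0711% of 15465 genes, with 2 at an unadjusted p under 0.05, and DESeq2 and limma-voom also called 0. The median log2 fold change was -0.09 over the P450 genes and -0.00 over all genes. Cyp7b1 had 2.55, 3.06 and 2.25 RPKM in Mlkl KO and 3.52, 4.69 and 3.34 RPKM in D387A-Cflar, without overlap, at a log2 fold change of 0.55 (SE 0.18, adjusted p = 0.658) that did not pass the test.

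Partners of the P450 enzymes were described as lists beside them. Of 24 genes of conjugation and efflux, which handle the products of P450 enzymes, 13 were lower in D387A-Cflar against Mlkl KO (median -1.35), 14 were lower in C362A (median -1.38), and 13 were lower and 1 higher in C362A-Cflar (median -1.15). With Casp1 loss 15 were higher against D387A-Cflar (median 1.48) and 15 against C362A (median 1.22), beside 8.88% and 5.60% of all genes. Of 16 enterocyte markers 14 and 11 were higher in these comparisons, and their part in the conjugation genes was not tested. Gsta2, a glutathione transferase, had a log2 fold change of -5.90 (SE 0.29, adjusted p = 3.9e-11) in D387A-Cflar. Of 15 receptors that induce or repress P450 genes, 6 were lower in D387A-Cflar (median -0.70), 5 in C362A (median -0.64) and 5 in C362A-Cflar (median -0.83). Nr1i3, the constitutive androstane receptor, which induces Cyp2 genes, had 17.6, 17.5 and 16.3 RPKM in Mlkl KO and 3.49, 2.46 and 2.35 RPKM in D387A-Cflar. Nr1i2, the pregnane X receptor, which induces Cyp3a genes, had 41.1, 43.5 and 39.2 RPKM and 18.52, 19.7 and 17.9 RPKM. Both were lower in every D387A-Cflar embryo, at log2 fold changes of -2.63 (SE 0.13, adjusted p = 3.2e-11) and -1.14 (SE 0.09). Nr0b2, a bile acid-induced repressor of P450 genes, was at -7.79 (SE 0.41, adjusted p = 6.4e-11).

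Of 8 donors of electrons to P450 enzymes, 7 of them tested, 1 was lower in D387A-Cflar (median -0.53), in C362A (median -0.65) and in C362A-Cflar (median -0.58), and it was Cyb5r3, a cytochrome b5 reductase. Por, the reductase that serves the microsomal P450 enzymes, had 57.2, 51.3 and 53.4 RPKM in Mlkl KO and 35.1, 37.6 and 32.2 RPKM in D387A-Cflar, without overlap, at a log2 fold change of -0.63 that was short of the fold threshold. Of 12 genes of heme synthesis and breakdown 1 was lower in each of D387A-Cflar (median -0.42), C362A (median -0.38) and C362A-Cflar (median -0.23). Of all genes tested 12.8%, 7.55% and 11.2% were lower in these comparisons. Of 12 genes of vitamin A handling 5 were lower and 1 higher in D387A-Cflar (median -0.56). Rbp2, which carries retinol in enterocytes, was at -4.91 (SE 0.13, adjusted p = 8.1e-14) there, and Stra6, a retinol transporter, at 2.75 (SE 0.22, adjusted p = 1e-08). The P450 enzymes of other symbol, Ptgis and Tbxas1, were not called in D387A-Cflar, and Ptgis, which makes prostacyclin, rose by 1.33 (SE 0.24, adjusted p = 0.0003) in C362A-Cflar.

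Other cell types were measured by marker lists as well. In D387A-Cflar against Mlkl KO, 2 of 10 hepatocyte genes were higher and 6 lower (median -3.14), and their sum was 57.4, 101.0 and 53.0 CPM against 306.1, 682.1 and 251.2 CPM. All 5 tested of 6 gastric genes were lower (median -3.43), in a comparison that includes the third control embryo with its gastric transcripts. By edgeR 0 of 7 fibroblast, 5 smooth muscle, 5 erythroid and 4 enteric neuron genes were called there, with 5, 4, 0 and 1 at an unadjusted p under 0.05. Of the other lists 1 of 7 tested pancreatic acinar genes was lower, 1 of 6 macrophage genes was higher and 1 lower, and of 4 tested neutrophil genes 3 were higher and 1 lower. In C362A 3 of 6 macrophage genes and 3 of 4 tested neutrophil genes were higher, 3 of 5 erythroid genes were lower, and of 10 hepatocyte genes 2 were higher and 4 lower. All 4 tested gastric genes were called there, 3 higher and 1 lower (median 5.24), and 1 of 7 tested pancreatic acinar genes was higher. In C362A-Cflar 3 of 10 hepatocyte genes were higher and 4 lower, 2 of 4 tested gastric genes higher and 1 lower, 3 of 6 macrophage genes higher and 1 lower, 3 of 4 tested neutrophil genes higher, 1 of 5 smooth muscle genes higher and 1 of 4 enteric neuron genes lower. There all 7 tested pancreatic acinar genes were higher, with sums of 45.6, 220.3 and 16.1 CPM against 7.10, 11.9 and 23.1 CPM in Mlkl KO, so the third embryo lay within the control range. In C362A-Casp1 against Mlkl KO 3 of 4 enteric neuron genes were lower (median -1.19). Of 10 hepatocyte genes 1 was higher and 3 lower, and of 16 enterocyte markers 1 was higher and 1 lower. In that comparison 1 of 7 fibroblast, 1 of 5 smooth muscle and 1 of 5 erythroid genes were lower. The part of these cell types in the P450 levels was not tested.

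Called genes were also counted by chromosome. The 18 P450 genes of chromosome 19 are Cyp2c genes apart from Cyp17a1, Cyp26a1 and Cyp26c1. Those tested in the D387A set were 7 Cyp2c genes, and all 7 fell in D387A-Cflar, where 24 of the 39 tested P450 genes and 12.8% of all genes fell. Of 8 tested in the C362A set, Cyp26a1 and 7 Cyp2c genes, 4 Cyp2c genes fell in C362A and 4 in C362A-Cflar, beside 17 of 43 P450 genes in each and 7.55% and 11.2% of all genes. On chromosome 4, with 19 members, 6 of 7 tested genes fell in D387A-Cflar. On chromosome 17, with 11 members, neighbors were split, since Cyp4f16 and Cyp4f13 fell and Cyp4f40 and Cyp4f14, which lie between them, were not called in D387A-Cflar. Their positions in GRCm38 are 32536558 to 32551798 for Cyp4f16 (ENSMUSG00000048440), 32658900 to 32676914 for Cyp4f40 (ENSMUSG00000090700), 32905070 to 32917342 for Cyp4f14 (ENSMUSG00000024292) and 32924688 to 32947402 for Cyp4f13 (ENSMUSG00000024055).

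Promoters, taken as the 250 bases before to 50 after each gene's start in RefSeq (GRCm38.p6), were found for 77 of the 100 genes, as 87 promoters. Each motif was searched on both strands. GCGTG, the core bound by the aryl hydrocarbon receptor, was in 18 of the 87 (20.7%) and in 32.4% of 32851 promoters of all genes. AGGTCA, to which nuclear receptors bind, was in 22 (25.3%) and in 16.3% of all. TGGACTTTG, a core of the HNF4A type, was in 11 (12.6%) and in 0.475% of all, and in each of the 11 it was read as CAAAGTCCA along the gene's strand. The near copies among these genes share ancestry, and a match describes letters and not a bound site. Of the 11, 4 belong to Cyp2c genes that fell in D387A-Cflar, and their sequences are printed since these genes fell together in that comparison, with capitals on the motif. They did not move together in all, since Cyp2c65 was higher and Cyp2c68 lower in C362A-Cflar against C362A. That rise of Cyp2c65 was no longer called without the first or second C362A embryo or the first C362A-Cflar embryo, at adjusted p of 0.0542, 0.0607 and 0.0678. Of the other Cyp2c genes that fell in D387A-Cflar, Cyp2c55 and Cyp2c66 had promoters without these letters. Cyp2c23, among the largest falls there, was not among the 11 either. The 4 printed sequences lie at chr19:39060850-39060938 (plus strand, Cyp2c65), chr19:39649119-39649207 (minus strand, Cyp2c67, named for its motif), chr19:39741130-39741218 (minus strand, Cyp2c68) and chr19:40187302-40187390 (minus strand, Cyp2c70).
Cyp2c65: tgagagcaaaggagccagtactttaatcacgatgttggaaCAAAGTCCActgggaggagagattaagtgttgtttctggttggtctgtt
Cyp2c67: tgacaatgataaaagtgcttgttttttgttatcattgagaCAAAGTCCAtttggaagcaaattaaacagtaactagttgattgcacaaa
Cyp2c68: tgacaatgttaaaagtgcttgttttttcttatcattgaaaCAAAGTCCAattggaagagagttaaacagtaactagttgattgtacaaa
Cyp2c70: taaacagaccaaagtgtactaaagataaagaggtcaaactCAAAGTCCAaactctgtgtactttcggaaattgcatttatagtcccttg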

How the data were processed

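RNA was sequenced from 30 embryonic intestines and 6 MEF cultures. GSNAP was used by the authors for alignment to GRCm38, and they deposited a raw count of uniquely aligned reads for each gene. They also deposited RPKM, which was not used. The counting program and annotation are not given in the sources used here. The paper names a stranded kit for the intestines, but the sample labels describe the library kit differently, so whether strand was kept is not known. P450 genes were found by symbol in GENCODE M21 through their Ensembl identifiers, of which 52489 of 52636 matched.

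The quasi-likelihood test of edgeR 4.0.16 (R 4.3.3) was run on the counts, with 1 fit for all genotypes of each set. Low genes were removed by filterByExpr (minimum count 10, minimum total 15), TMM gave the scaling, p-values were adjusted by the Benjamini-Hochberg method over all genes tested, and the prior count was 0.125. This left 18360 genes for D387A, 19408 for C362A, 15465 for MEFs and 19643 in the fit of 30 intestines, with biological coefficients of variation of 0.132, 0.162, 0.132 and 0.146. A standard error is the log2 fold change over the root of its F statistic. The RPKM printed here was computed from the counts and annotated gene widths on scaled library sizes. Median reads on genes per library were 21411893, 26901265 and 25608762 in the 3 sets. The procedure was run on simulated counts, with changes planted in genes of higher counts at a fixed spread. That run does not cover genes near 0 reads or replicates that stood apart. An exact permutation test of 3 against 3 cannot give a p under 0.1 and was not used. Python 3.11 with pandas 2.3.3, scipy 1.17.1 and matplotlib 3.10.9 made the tables and figures.

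Genes named are the 12 P450 genes highest in Mlkl KO intestines, the 3 largest rises and falls of each comparison among called P450 genes whose groups do not overlap in CPM, a fixed list of 13, the 5 highest in Mlkl KO MEFs, and the genes of the pathway and marker lists. Other P450 genes were named after their values were seen, or for their promoter or place on a chromosome. Members and lists were chosen with earlier results of these data known. Alternatives were DESeq2 1.42.0, limma-voom (limma 3.58.1), relative log expression factors, raw library totals, no filter, a mean of at least 50 reads, a prior count of 2, only the libraries compared, a block for replicate number, and fits that each left out a library.

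Replicate numbers of the labels were checked for pairing by the correlation of deviations from group means between libraries of the same number. In D387A against Mlkl KO it was 0.166, 0.249 and 0.229, and in the MEFs 0.327, 0.381 and 0.231, so the numbers may pair these samples. Signs were mixed or negative in other comparisons, as in C362A-Cflar against Mlkl KO (-0.283, -0.307 and -0.51). Whether the numbers mark litters was not tested, and the main fits held no term for them. With the replicate block the P450 calls were 0 in D387A against Mlkl KO and in the MEFs.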

Additional observations from a re-analysis of the deposited data

Results flagged for a closer look

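The effect of Casp1 loss differed between the D387A and C362A pairs for 7 P450 genes by the interaction test, beside 4.90% of all genes in the same direction and 0.825% in the other. The log2 difference was 1.08 for Cyp4f18, 2.96 for Cyp2c23, 1.02 for Cyp2u1, 3.81 for Cyp2j13, 1.79 for Cyp2w1, 4.48 for Cyp2c70 and 1.18 for Cyp2c68. In each case the rise was larger, or the fall smaller, in the D387A pair, which also lacked Cflar. By limma-voom 2 genes were called (Cyp2w1 and Cyp2c68) and with only the libraries compared 4, and Cyp4f18 was not called in 23 of 30 fits that each left out a library or under 3 alternatives. The value of Cyp2c70 rests on 1 read in D387A-Cflar and depends on the prior count, and its call ended in 5 such fits. The difference was not limited to P450 genes, since 9 of 16 enterocyte markers and 2 of 4 enteric neuron genes were called in the same interaction. The cause was not tested.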

How the results depend on the processing

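Of the fold changes of P450 genes that were called and are named, those named after their values were seen included, no alternative and no left-out library reversed one. Over 1200 such values under alternative settings 1148 kept their call and 52 lost it, and over 2160 values with a library left out 2032 kept it and 128 lost it. Counts of called P450 genes moved by over 1.5 times in the following cases. With a mean of at least 50 reads, which tests fewer genes, the count was 8 in place of 13 in D387A-Cflar-Casp1-Ifnar1 against Mlkl KO, 5 in place of 9 against D387A-Cflar-Casp1, 13 in place of 20 in C362A against Mlkl KO, and 1 in place of 0 in the interaction of the alleles with Cflar loss. With only the libraries compared, which leaves fewer samples, it was 4 in place of 9 in D387A-Cflar-Casp1-Ifnar1 against D387A-Cflar-Casp1 and 4 in place of 7 in the interaction of Casp1 loss, which limma-voom put at 2. The interaction with Cflar loss gave 1 by DESeq2, 1 on raw totals and 4 without a filter. The cause was not tested for the other settings. With the replicate block no count moved by over 1.5 times, and the largest was 26 in D387A-Cflar against Mlkl KO.

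With each library left out in turn, counts ran from 0 to 0 in D387A, 25 to 28 in D387A-Cflar, 1 to 6 in D387A-Cflar-Casp1, 13 to 15 with added loss of Ifnar1 and 1 to 2 with added loss of Fadd, all against Mlkl KO. They ran from 17 to 23 in D387A-Cflar-Casp1 against D387A-Cflar, and against D387A-Cflar-Casp1 from 7 to 10 with Ifnar1 loss and 0 to 5 with Fadd loss. In the C362A set they ran from 15 to 21 in C362A, 8 to 13 in C362A-Casp1 and 20 to 24 in C362A-Cflar against Mlkl KO, and against C362A from 12 to 17 in C362A-Casp1 and 4 to 13 in C362A-Cflar. They ran from 0 to 0 in the MEFs, 4 to 8 in the interaction of Casp1 loss and 0 to 4 in that of Cflar loss. Untested genes had mean levels of at most 0.278 RPKM. Without a filter the count in D387A-Cflar against Mlkl KO was 31 in place of 27.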
